A study of Mus musculus with 68 samples.

Results

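The ERK feedback inhibitors are 10 genes followed here in the uterus of mice given oestradiol (E2) or insulin-like growth factor 1 (IGF1): Spry1, Spry2, Spry4, Spred1, Spred2, Spred3, Dusp4, Dusp5, Dusp6 and Etv5. They are 10 of 30142 genes with a probe set of their own. They were listed by symbol with earlier results of these data known, and each was measured by 1 probe set that names no other gene. The study asked which uterine transcript responses to E2 and to IGF1 need oestrogen receptor alpha (ERα, gene Esr1). It used 68 arrays in 25 groups of 2 or 3 arrays, 1 array per sample, and where a group has 2 arrays the authors had left out 1 replicate as an outlier by principal component analysis, so that its spread may be understated. All mice were ovariectomized. The C57 set held C57Bl6 wild types (14 arrays). The Ex3a set held Ex3aERKO mice, which carry a null allele of Esr1 (11 arrays), and their wild-type littermates, Ex3aWT (14 arrays). The Utc set held ERaUtcKO mice, in which a floxed Esr1 allele is deleted by Cre expressed from the progesterone receptor gene (genotype Esr1f/f;PgrCre+, 15 arrays), and their wild-type littermates, UtcWT (14 arrays). In ERaUtcKO mice the deletion is thus limited to cells that express that Cre. Each of the 5 genotype groups received vehicle, E2 (250 ng) or IGF1, and uteri were taken at 2 h or 24 h, except that vehicle uteri were taken at 24 h only. A comparison of a 2 h group with vehicle therefore also spans a difference in time after treatment, which cannot be told apart from the hormone. IGF1 was given as an injection of 50 µg or by an implanted pump, and the route is not told sample by sample. The labels do not say whether replicates are separate animals or pools, and the p-values reflect only how far these samples spread.

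Growth factor receptors such as the IGF1 receptor act through RAS and the kinases RAF, MEK and ERK, and active ERK switches on genes whose products then damp the same cascade. Sprouty proteins (Spry) and the related Spred proteins act on the way from receptor to RAF, while the dual-specificity phosphatases (Dusp) remove phosphate from MAP kinases: DUSP6 acts on cytoplasmic ERK, DUSP5 on nuclear ERK, and DUSP4 is a nuclear phosphatase of broader range. Etv5 is not an inhibitor but a transcription factor of the ETS family that is widely used as a readout of the same cascade. In the uterus E2 is known to raise local Igf1, and both hormones drive epithelial growth.

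Promoter windows are shown for 4 members as examples of the responses at 2 h given below: Dusp5 and Spry2 were raised more by E2, Dusp6 was raised more by IGF1, and Etv5 was lowered by E2. The sequences are the 250 bases before the gene start in RefSeq, build GRCm38.p6, read 5′ to 3′ on the gene's strand, in lower case. Capitals mark matches to the motifs searched. They lie at chr19:53528895-53529144 (Dusp5, plus strand), chr10:99262981-99263230 (Dusp6, plus strand), chr14:105896820-105897069 (Spry2, minus strand) and chr16:22439571-22439820 (Etv5, minus strand, the one of its 2 windows that holds a match).
Dusp5: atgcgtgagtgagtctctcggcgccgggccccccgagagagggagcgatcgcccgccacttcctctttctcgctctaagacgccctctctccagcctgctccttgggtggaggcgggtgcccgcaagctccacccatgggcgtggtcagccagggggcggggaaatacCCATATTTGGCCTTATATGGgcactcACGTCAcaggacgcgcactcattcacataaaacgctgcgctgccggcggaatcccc
Dusp6: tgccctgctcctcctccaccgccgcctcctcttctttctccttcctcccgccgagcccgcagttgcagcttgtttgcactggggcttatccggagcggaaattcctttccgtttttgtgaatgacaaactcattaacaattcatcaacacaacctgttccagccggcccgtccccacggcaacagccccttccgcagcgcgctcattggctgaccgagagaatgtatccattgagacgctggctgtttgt
Spry2: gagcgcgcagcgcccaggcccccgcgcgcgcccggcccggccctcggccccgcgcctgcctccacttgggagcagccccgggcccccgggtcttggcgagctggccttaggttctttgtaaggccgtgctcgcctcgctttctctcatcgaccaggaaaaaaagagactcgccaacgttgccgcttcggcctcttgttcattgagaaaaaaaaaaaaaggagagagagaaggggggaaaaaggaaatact
Etv5: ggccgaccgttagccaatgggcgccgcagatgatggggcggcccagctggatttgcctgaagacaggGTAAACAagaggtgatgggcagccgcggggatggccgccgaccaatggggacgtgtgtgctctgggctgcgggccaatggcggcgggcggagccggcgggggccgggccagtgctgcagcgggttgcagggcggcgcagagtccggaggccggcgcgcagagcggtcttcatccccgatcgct

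The motifs were searched on both strands. They were the ETS site (CCGGAA), the AP-1 site (TGANTCA), the cAMP response element (TGACGTCA) and its first 6 letters (TGACGT, which any full element also holds), the CArG box of the serum response element, the palindromic oestrogen response element and a FOXO site (GTAAACA). In Dusp5 the capitals are 2 CArG boxes side by side, which begin 82 and 72 bases before the gene start, and a reverse-strand TGACGT that begins 56 bases before it. In Etv5 they are a FOXO site that begins 183 bases before the start. Of all 32851 RefSeq promoter windows of the same length, 1.47% held a CArG box, 6.47% held TGACGT and 3.17% held the FOXO site. The window of Spred2 also held TGACGT, and none of the windows of Spry1, Spry2, Spred1, Spred3 and Dusp6 held any of these letters. The ETS site (in 3952 of all windows), the AP-1 site (6.75%), the full cAMP response element (1.55%) and the oestrogen response element (0.0639%) were in none of the members' windows. The table matched 8 of the 10 members, all but Spry4 and Dusp4. A match is a string of letters and was not tested for binding.

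Values are log2 intensities as deposited, so a difference of 1 is a doubling of signal. They are compared within a gene and within a mouse set, because the median of all probe sets on an array ran from 6.43 to 6.60 in the C57 set, from 5.82 to 6.15 in the Ex3a set and from 6.26 to 6.62 in the Utc set. On signal, 8 members lay above the 95th percentile of the array's antigenomic controls (probe sets designed without a target in the mouse genome) on all 68 arrays. The other two, Dusp4 and Dusp5, did so on 62 and 60 arrays. As a check of the labels, the Esr1 probe set read 10.08 and 10.29 on the Ex3aERKO vehicle arrays against 12.43 and 12.73 on those of the littermates, a difference of -2.39 ± 0.19 (SE, limma adjusted p = 1.8e-06). On ERaUtcKO vehicle arrays it read from 10.86 to 11.10 against 12.17 to 12.25 (-1.21 ± 0.11, adjusted p = 3.66e-07). Both lines thus had less Esr1 signal than their littermates, and a signal remained in both.

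Cell type markers were followed because a bulk uterus holds several tissues, and in such samples fewer cells of a type and less RNA per cell cannot be told apart. In wild types, all 7 endometrial stroma markers were lower after E2 at 2 h (median -1.37), all 6 smooth muscle markers were higher at 24 h after E2 (median 1.21) and after IGF1 (1.35), and 6 of 8 epithelial markers were higher at 24 h after E2 (2.00). The summed stroma signal was 18.12 to 18.29 on C57 vehicle arrays and 17.61 to 17.73 after E2 at 2 h. In Ex3aWT it was 18.78 to 18.80 and 17.81 to 17.97, and in UtcWT 18.30 to 18.43 and 17.89 to 18.02. On wild-type vehicle arrays Dcn averaged 18.15 and the next stroma marker, Lum, 15.19. The summed stroma signal therefore mostly follows Dcn. The summed epithelial signal was 14.16 to 14.30 on C57 vehicle arrays and 15.85 to 15.95 at 24 h after E2, and the summed smooth muscle signal was 18.84 to 18.99 on vehicle arrays, 19.55 to 19.64 at 24 h after E2 and 19.68 to 20.06 at 24 h after IGF1. After IGF1 at 2 h the summed stroma signal was also below vehicle, at 17.82 to 17.85 in C57, 17.80 to 17.97 in Ex3aWT and 17.91 to 18.07 in UtcWT, while of the 7 markers 2 were called higher and 3 lower (median -0.15). All 4 liver transcripts were lower than vehicle in wild types after E2 at 2 h and 24 h and after IGF1 at 2 h. Their summed signal was 15.67 to 17.56 on C57 vehicle arrays against 9.02 to 9.90 after IGF1 at 2 h, but 7.15 to 7.18 on Ex3aWT vehicle arrays. All markers of epithelium, stroma and smooth muscle were above the control probe sets on every wild-type vehicle array. No liver transcript was above them on every one. However, Alb, Apoa1 and Ttr were each above them on 7 of 8 such arrays and Apob on 4, and Alb averaged 11.76. The part of these shifts in the members' values was not tested.

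At 2 h after E2, wild-type uteri had more Spry4, Dusp5, Dusp6 and Spry2 transcript and less Etv5, Spry1 and Spred1. Spry4 rose 16.0-fold, Dusp5 4.94-fold, Dusp6 3.41-fold and Spry2 3.10-fold, and Etv5 fell 2.48-fold. The fold of Dusp5 is limited by the floor of the arrays, since its vehicle level was close to the control probe sets. Thus 4 of 10 members were called higher and 3 lower at an adjusted p under 0.05, where 17.2% of all genes were called higher, 22.8% lower and 40.0% in either direction. The members' median difference was 0.05, against -0.05 over all genes. After IGF1 at 2 h, 6 members were higher (Spry4, Dusp6, Dusp5, Spred1, Spry1 and Spred2) and none was lower, where 16.9% of all genes were called higher, 19.0% lower and 35.9% in all. Their median difference was 0.42 against -0.04. These shares of all genes depend on scaling: when each array was centred on its median, 60.15% of the called genes were higher after E2 at 2 h in place of 43.06%, and 63.40% after IGF1 at 2 h in place of 47.12%, while no call of a member changed in these comparisons.

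**Figure D1:**
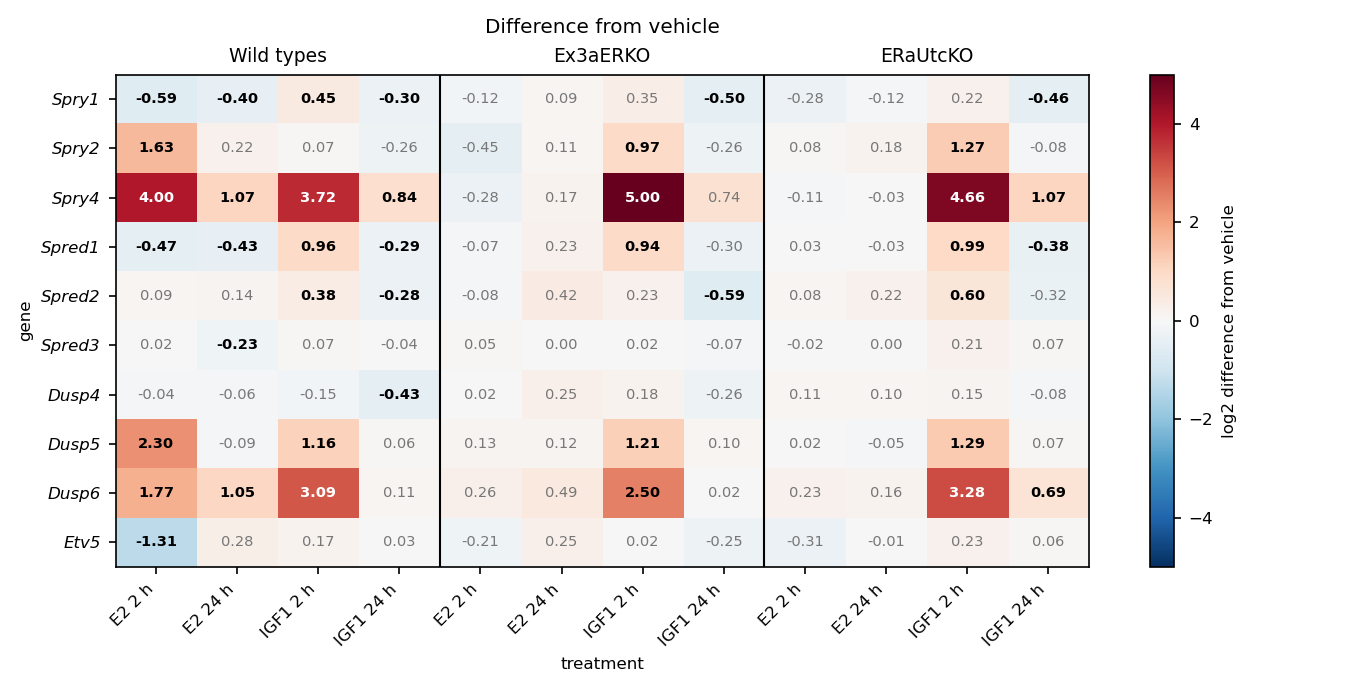
Heat map of the log2 difference from vehicle for the 10 members (vertical axis) after each treatment (horizontal axis) in the 42 wild-type arrays and in the 2 knockout lines. Bold values have an adjusted p under 0.05. The E2 columns of both knockout lines hold no bold value, while Spry4 after IGF1 at 2 h is 3.72, 5.0 and 4.66 in the 3 blocks.

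Spry4, a Sprouty that restrains signalling upstream of RAF, was the member with the largest difference. On C57 arrays it read 7.92, 7.92 and 7.74 with vehicle, 12.13, 11.97 and 12.30 after E2 at 2 h, and 11.86 and 11.70 after IGF1 at 2 h. On Ex3aWT arrays it read 6.47 and 6.37 with vehicle, 10.69, 9.70 and 10.07 after E2, and 9.86, 11.52 and 9.70 after IGF1. UtcWT arrays gave 6.59, 6.50 and 6.51 with vehicle, 11.15, 10.46 and 9.998 after E2, and 9.38 and 10.15 after IGF1. In each set all arrays of both 2 h groups were far above all vehicle arrays, and the second Ex3aWT array after IGF1 stood above its group mates. Separation from vehicle within a set was common among all genes. After E2 at 2 h, 17.8% in C57, 24.5% in Ex3aWT and 16.5% in UtcWT lay wholly above vehicle. The shares wholly below it were 22.3%, 23.6% and 25.7%. After IGF1 at 2 h, 21.4%, 23.9% and 16.4% lay wholly above. The share that separated in all 3 sets was not taken. Nor was the share that separated between E2 and IGF1, or between 2 h and 24 h, for this or any member below. Over the 3 sets the difference was 4.0 ± 0.21 after E2 (9 against 8 arrays, adjusted p = 6.24e-19) and 3.72 ± 0.23 after IGF1 (7 against 8 arrays, adjusted p = 1.91e-16). The hormones did not differ detectably from each other in Spry4 at 2 h, with E2 minus IGF1 at 0.28 ± 0.22 (adjusted p = 0.47).

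Dusp6, the phosphatase of cytoplasmic ERK, was higher after both hormones and more so after IGF1. Vehicle arrays read 9.21, 9.25 and 9.33 in C57, 8.15 and 8.05 in Ex3aWT, and 8.19, 8.01 and 8.45 in UtcWT. After E2 at 2 h they read 11.09, 10.81 and 11.12 in C57, 10.30, 10.02 and 10.06 in Ex3aWT, and 9.90, 9.94 and 9.58 in UtcWT. After IGF1 at 2 h they read 12.64 and 12.33, then 10.98, 11.61 and 11.29, then 10.61 and 11.65 in the same order of sets. In every set the vehicle, E2 and IGF1 arrays at 2 h formed 3 ranges that did not overlap, with IGF1 on top. How many of all genes formed such ranges was not taken. The difference from vehicle was 1.77 ± 0.15 after E2 (adjusted p = 6.02e-13) and 3.09 ± 0.16 after IGF1 (adjusted p = 2.95e-18), which ranked 26th of 30142 genes by the size of the limma statistic. E2 minus IGF1 was -1.32 ± 0.16 (adjusted p = 7.59e-09).

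Dusp5, the phosphatase of nuclear ERK, showed the reverse order. In C57 it read 7.08, 6.70 and 6.96 with vehicle, 10.30, 10.43 and 10.86 after E2 at 2 h, and 8.84 and 8.79 after IGF1. In Ex3aWT the corresponding arrays read 5.76 and 5.77, then 7.89, 6.90 and 7.14, then 6.73, 6.60 and 6.51. In UtcWT they read 6.39, 6.23 and 6.17, then 8.18, 7.80 and 7.82, then 6.93 and 7.0. Vehicle array 2 of C57 and vehicle array 3 of Ex3aWT were below the 95th percentile of their control probe sets (6.89 and 5.92), which limits the size of the rise and its comparison between sets. Within each set every E2 array was above every IGF1 array and every IGF1 array above every vehicle array. How many of all genes kept such an order was not taken. The difference was 2.30 ± 0.23 after E2 (adjusted p = 6.23e-11) and 1.16 ± 0.25 after IGF1 (adjusted p = 0.000211), and E2 minus IGF1 was 1.14 ± 0.24 (adjusted p = 0.000294). The rise was larger in the C57 set than in the littermate sets: the E2 response differed by 2.01 ± 0.21 (adjusted p = 8.69e-08) and the IGF1 response by 1.13 ± 0.23 (adjusted p = 0.00597). Dusp5 was the 1 member called in each of these 2 tests, which were chosen after seeing the data and called 2.11% and 1.07% of all genes. The phosphatase gene Dusp4 was called after neither hormone at 2 h, with -0.04 ± 0.09 after E2 and -0.15 ± 0.09 after IGF1. Without the second Ex3aWT array after IGF1 at 2 h, the latter was -0.23 and called (adjusted p = 0.0312).

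**Figure D2:**
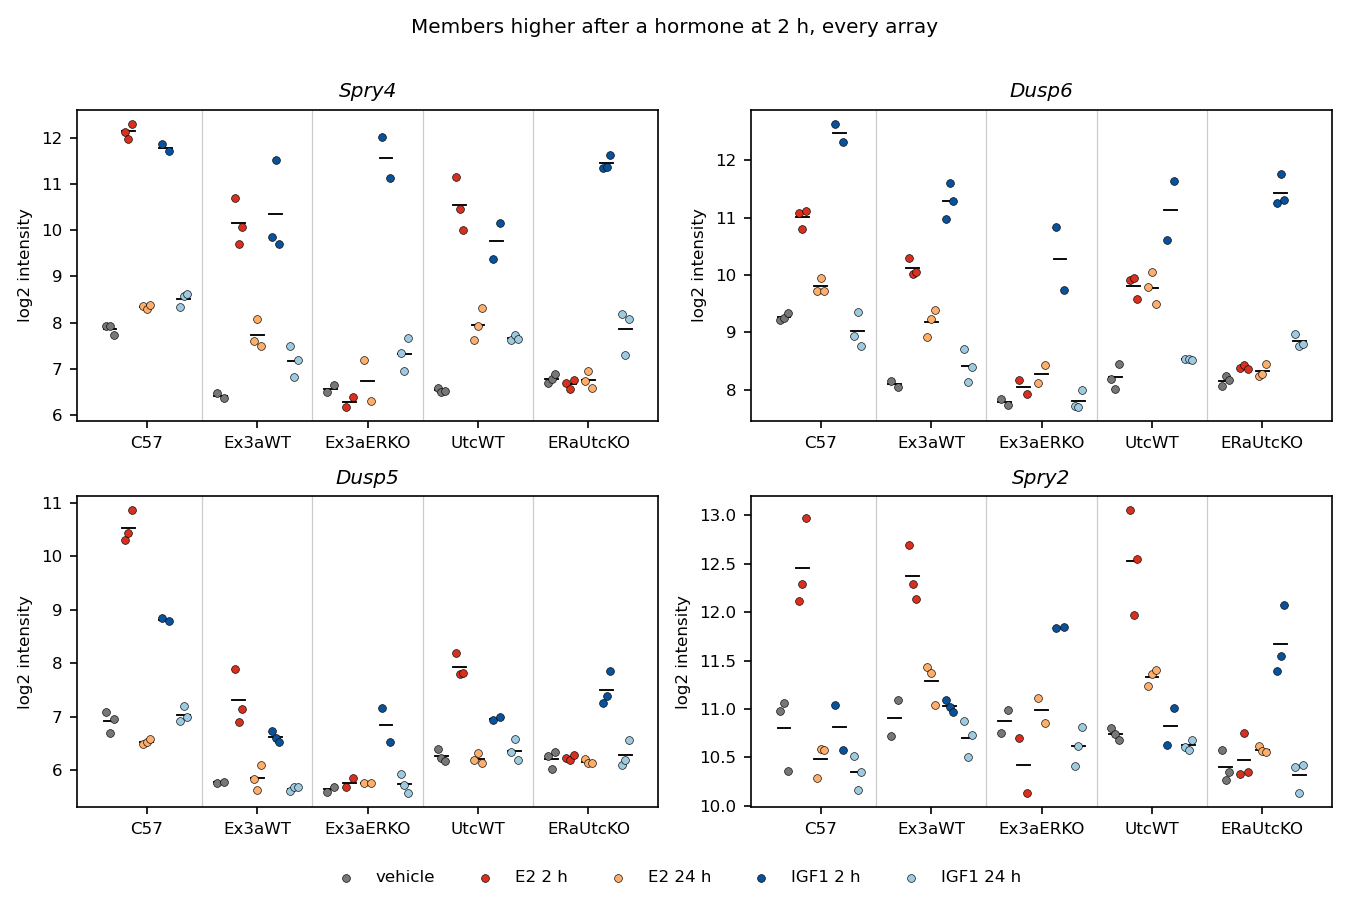
Log2 intensity (vertical axis) of Spry4, Dusp6, Dusp5 and Spry2 on every array, by genotype group (horizontal axis) and treatment (colour); points are arrays and bars are group means. Red points (E2 at 2 h) stand high in the 3 wild-type groups and at or near the level of vehicle in Ex3aERKO and ERaUtcKO, whereas dark blue points (IGF1 at 2 h) stand above vehicle in both knockout lines for all 4 genes and for Spry2 not in the wild types.

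Spry2, a Sprouty that like Spry4 damps receptor signalling, separated the hormones. Vehicle arrays read 10.98, 11.06 and 10.36 in C57, 10.72 and 11.10 in Ex3aWT, and 10.80, 10.74 and 10.68 in UtcWT. After E2 at 2 h they read 12.12, 12.29 and 12.98, then 12.70, 12.29 and 12.13, then 13.05, 11.97 and 12.55 in these sets. After IGF1 at 2 h they read 11.04 and 10.58, then 11.10, 11.02 and 10.97, then 10.63 and 11.01. All 9 E2 arrays were above all vehicle and IGF1 arrays of their set, and in each set the IGF1 arrays overlapped the vehicle range. How many of all genes separated E2 from IGF1 arrays was not taken. The difference was 1.63 ± 0.14 after E2 (adjusted p = 6.83e-13) and 0.07 ± 0.15 after IGF1 (adjusted p = 0.765), and E2 minus IGF1 was 1.56 ± 0.14 (adjusted p = 1.64e-11).

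Spry1 and Spred1 moved in opposite directions after the 2 hormones. Spry1, the third Sprouty, read 9.80, 9.75 and 9.52 with vehicle in C57, 8.90, 8.83 and 8.73 after E2 at 2 h, and 10.58 and 10.31 after IGF1. In Ex3aWT it read 7.53 and 7.45, then 6.78, 7.02 and 7.04, then 7.46, 7.94 and 7.96. In UtcWT it read 7.62, 7.76 and 7.71, then 7.28, 7.39 and 7.29, then 7.93 and 8.24. The E2 arrays were the lowest 3 in every set, and the IGF1 arrays were above vehicle except for 1 Ex3aWT array that lay within the vehicle range. Spry1 fell by 0.59 ± 0.10 after E2 (adjusted p = 6.21e-06) and rose by 0.45 ± 0.11 after IGF1 (adjusted p = 0.000905), and E2 minus IGF1 was -1.05 ± 0.11 (adjusted p = 1.93e-10). In Ex3aWT alone the IGF1 difference was 0.30 ± 0.14 and was not called (adjusted p = 0.17).

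Spred1, which binds RAS pathway proteins and lowers RAF activation, read 11.95, 11.74 and 11.58 with vehicle in C57, 11.09, 11.45 and 11.19 after E2 at 2 h, and 12.77 and 12.69 after IGF1. In Ex3aWT it read 11.82 and 11.75, then 11.34, 11.62 and 11.26, then 12.86, 12.68 and 12.82. In UtcWT it read 12.59, 12.51 and 12.44, then 12.05, 11.85 and 12.09, then 13.48 and 13.35. The 3 treatments formed separate ranges in every set, with E2 lowest and IGF1 highest. How many of all genes formed such ranges was not taken. Spred1 fell by 0.47 ± 0.06 after E2 (adjusted p = 2.2e-09) and rose by 0.96 ± 0.06 after IGF1 (adjusted p = 2.59e-16), and E2 minus IGF1 was -1.43 ± 0.06 (adjusted p = 1.9e-22). In Ex3aWT alone its fall after E2 just missed the threshold (-0.38 ± 0.13, adjusted p = 0.0511). Its relative Spred2 rose by 0.38 ± 0.09 after IGF1 (adjusted p = 0.000931) and was not called after E2 (0.09 ± 0.09, adjusted p = 0.47). The rise of Spred2 was seen in the littermate sets, with 0.54 ± 0.17 in Ex3aWT and 0.57 ± 0.16 in UtcWT, while C57 alone gave 0.07 ± 0.14 (adjusted p = 0.835). That difference between sets did not pass (adjusted p = 0.383). Spred3, the third Spred, was called after neither hormone at 2 h. Over all treatments its values ran from 7.36 to 7.74 in the C57 set, from 6.40 to 7.08 in the Ex3a set and from 6.92 to 7.62 in the Utc set.

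Etv5, the ETS factor, was lower after E2 and not after IGF1. Vehicle arrays read 8.97, 8.88 and 8.75 in C57, 9.28 and 8.72 in Ex3aWT, and 8.50, 8.63 and 8.73 in UtcWT. At 2 h after E2 they read 7.65, 7.72 and 7.36, then 7.66, 7.57 and 7.45, then 7.20, 7.38 and 7.59. At 2 h after IGF1 they read 9.26 and 8.92, then 8.88, 8.12 and 9.40, then 8.91 and 9.49. Every E2 array was below every vehicle and IGF1 array of its set, and the Ex3aWT arrays after IGF1 spread over more than 1 log2 unit. How many of all genes separated E2 from IGF1 arrays was not taken. The difference was -1.31 ± 0.14 after E2 (adjusted p = 2.14e-10) and 0.17 ± 0.15 after IGF1 (adjusted p = 0.417), and E2 minus IGF1 was -1.48 ± 0.14 (adjusted p = 6.39e-11). Without the second Ex3aWT array after IGF1, the IGF1 difference was 0.32 and called (adjusted p = 0.0463), and UtcWT alone gave 0.58 ± 0.17 (adjusted p = 0.0174).

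**Figure D3:**
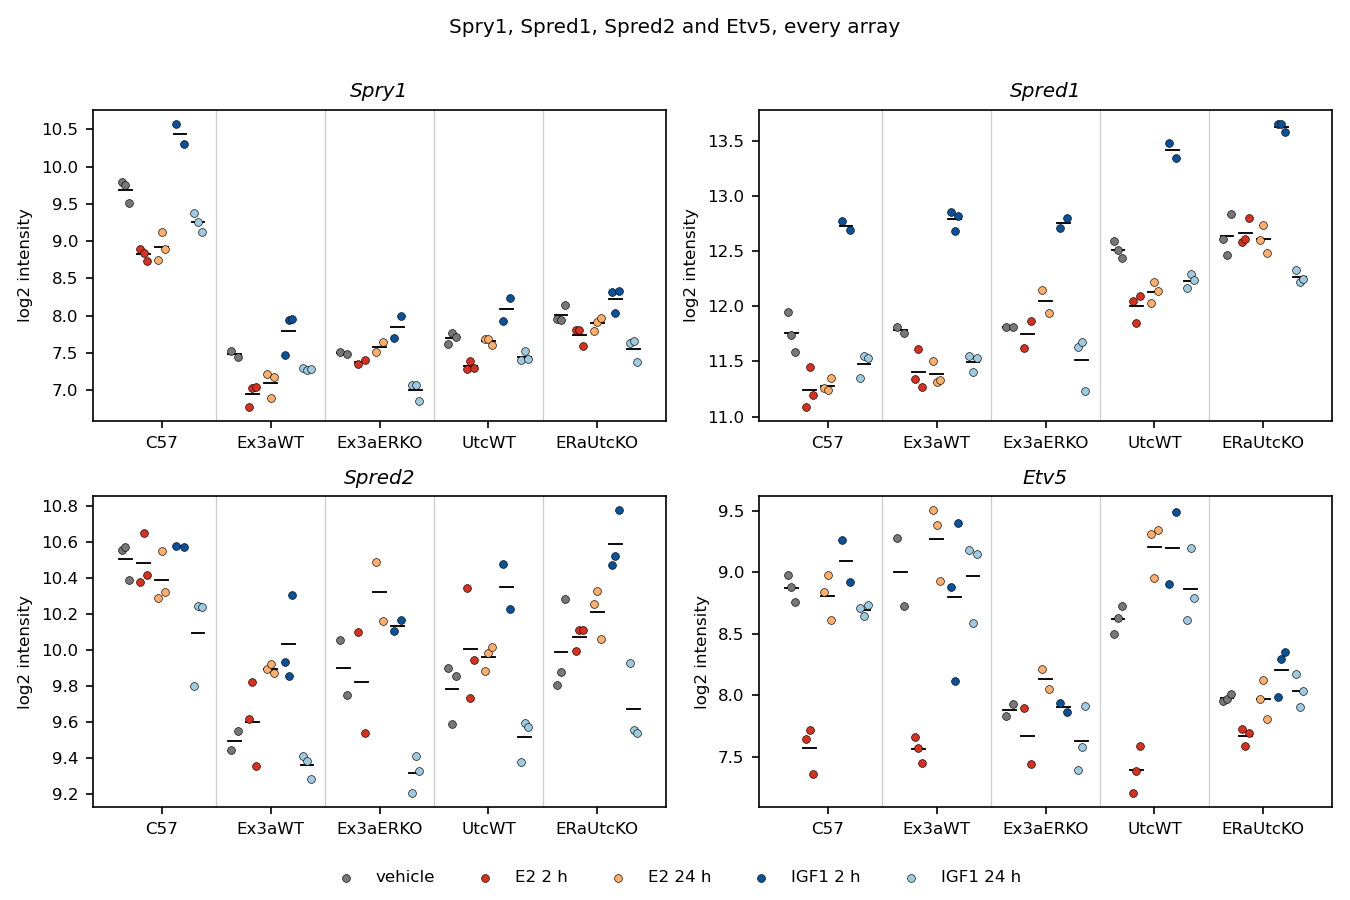
Log2 intensity (vertical axis) of Spry1, Spred1, Spred2 and Etv5 on every array, by genotype group (horizontal axis) and treatment (colour); points are arrays and bars are group means. In the 3 wild-type groups the red points (E2 at 2 h) of Spry1, Spred1 and Etv5 lie below vehicle and the dark blue points (IGF1 at 2 h) of Spred1 lie above it.

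In all, 7 of 10 members differed between E2 and IGF1 at 2 h in wild types, where 22.0% of all genes did: Spry2 and Dusp5 were higher after E2, and Spry1, Spred1, Spred2, Dusp6 and Etv5 higher after IGF1. The call of Spred2 (-0.30 ± 0.09, adjusted p = 0.0129) was lost without the third Ex3aWT array after IGF1 (adjusted p = 0.0508) and in each set taken alone. These comparisons share the vehicle arrays with each other, so only the direct difference between the hormones was tested.

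At 24 h Spry4 was the member called above vehicle after both hormones, at a lower level than at 2 h. It was higher by 1.07 ± 0.21 after E2 (adjusted p = 4.18e-05) and 0.84 ± 0.21 after IGF1 (adjusted p = 0.00149). Its arrays at 24 h read 8.36, 8.29 and 8.37 after E2 and 8.34, 8.57 and 8.62 after IGF1 in C57. They read 7.61, 8.09 and 7.502, then 7.48, 6.82 and 7.19 in Ex3aWT, and 7.62, 7.93 and 8.32, then 7.62, 7.74 and 7.65 in UtcWT. All of them were above the vehicle arrays of their set and below its 2 h arrays. Of all genes, 25.3% in C57, 27.7% in Ex3aWT and 22.9% in UtcWT lay wholly above vehicle at 24 h after E2. At 24 h after IGF1 these shares were 18.1%, 19.7% and 20.2%. The order of Spry4 in wild types was thus vehicle, then both 24 h groups, then both 2 h groups, with neither pair of neighbouring hormone groups differing detectably (at 24 h, E2 minus IGF1 was 0.23 ± 0.21, adjusted p = 0.478).

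Dusp6 kept a rise at 24 h after E2 (1.05 ± 0.15, adjusted p = 1.54e-07) and not after IGF1 (0.11 ± 0.15, adjusted p = 0.578), which reversed the order seen at 2 h: E2 minus IGF1 was 0.93 ± 0.15 (adjusted p = 2.58e-06). Its arrays at 24 h after E2 read 9.72, 9.95 and 9.73 in C57, 8.93, 9.24 and 9.39 in Ex3aWT, and 9.80, 10.05 and 9.49 in UtcWT. After IGF1 they read 8.94, 9.35 and 8.76, then 8.71, 8.13 and 8.39, then 8.53, 8.54 and 8.53. The E2 arrays were above the IGF1 arrays in each set, and in UtcWT they reached the level of E2 at 2 h. The rise of Dusp6 at 24 h after E2 was smaller in C57 than in the littermate sets by 0.79 ± 0.25 (adjusted p = 0.0371), and the fall of Spry1 was deeper there (-0.55 ± 0.14, adjusted p = 0.0132). These 2 were the members called in that comparison, which was chosen after seeing the data and called 11.3% of all genes. The matching comparison for IGF1 at 24 h called no member and 1.82% of genes.

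At 24 h after E2, 2 members were higher (Spry4 and Dusp6) and 3 lower (Spry1, Spred1 and Spred3), where 24.5% of all genes were higher, 31.7% lower and 56.2% called in all. Spry1 had fallen by 0.40 ± 0.10 (adjusted p = 0.00104), Spred1 by 0.43 ± 0.06 (adjusted p = 1.84e-08) and Spred3 by 0.23 ± 0.06 (adjusted p = 0.00145). At 24 h after IGF1, Spry4 was higher and Spry1, Spred1, Spred2 and Dusp4 lower, with differences from -0.43 to -0.28, where 19.3% of genes were higher, 21.6% lower and 40.9% called. In Ex3aWT alone, with fewer arrays per treatment, none of the 10 was called at 24 h after IGF1. The share of all genes called in that set alone is not given here. Centring the arrays raised the share of called genes that were higher from 43.65% to 56.50% at 24 h after E2 and from 47.20% to 60.90% at 24 h after IGF1. Under centring the fall of Spry1 after IGF1 was no longer called (-0.24 ± 0.11, adjusted p = 0.0816), and after E2 Spred2 (0.22 ± 0.09, adjusted p = 0.041) and Etv5 (0.35 ± 0.15, adjusted p = 0.0429) were called higher. The sets were not alike in Spry1 at 24 h after E2, which read -0.04 ± 0.10 in UtcWT alone (adjusted p = 0.75). Etv5 rose in UtcWT alone (0.58 ± 0.15, adjusted p = 0.00301) and had 0.28 ± 0.14 over the 3 sets (adjusted p = 0.0868). Its response in C57 minus that in the littermate sets, a comparison chosen after seeing the data, did not pass (-0.49 ± 0.28, adjusted p = 0.251). UtcWT was not tested against the other sets. Over the 3 sets Etv5 was called without C57 E2 24 h array 3, Ex3aWT vehicle array 2 or Ex3aWT IGF1 2 h array 2 (adjusted p down to 0.0392).

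The direct comparison of 24 h with 2 h called 6 members after E2, where 51.2% of all genes were called, and 7 after IGF1, where 35.3% were. After E2, Spry4 fell by 2.93 ± 0.21, Dusp5 by 2.40 ± 0.23, Spry2 by 1.42 ± 0.13, Dusp6 by 0.73 ± 0.15 (but with -0.03 ± 0.19 in UtcWT alone, adjusted p = 0.911) and Spred3 by 0.25 ± 0.06, while Etv5 came back up by 1.59 ± 0.13. After IGF1, Dusp6 fell by 2.98 ± 0.16, Spry4 by 2.88 ± 0.22, Spred1 by 1.25 ± 0.06, Dusp5 by 1.10 ± 0.24, Spry1 by 0.75 ± 0.11, Spred2 by 0.67 ± 0.09 and Dusp4 by 0.28 ± 0.09. The fall of Spred1 ranked 3rd of 30142 genes by the limma statistic (adjusted p = 2.54e-19). The fall of Dusp4 was not called without the second Ex3aWT array at 2 h (adjusted p = 0.0529). Between the hormones at 24 h, Dusp6, Spry2, Spred2 and Dusp4 were higher after E2 and Spred3 lower, 5 of 10 members where 28.1% of genes were called.

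**Figure D4:**
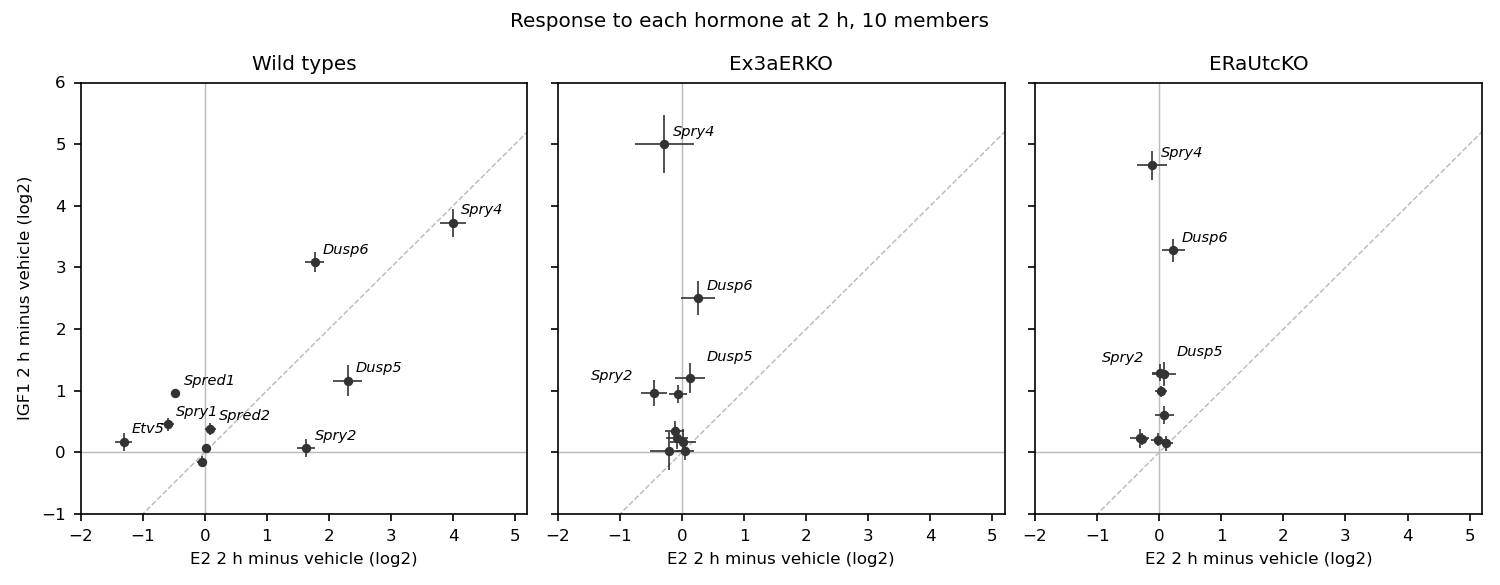
Log2 difference from vehicle at 2 h after E2 (horizontal axis) against that after IGF1 (vertical axis) for the 10 members, in wild types and in each knockout line; bars are standard errors and the dashed line marks equal differences. Both axes use the same vehicle arrays. In wild types the members spread along both axes, and in the knockout lines all 10 lie near 0 on the E2 axis while Spry4 and Dusp6 keep their height on the IGF1 axis.

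In the 2 knockout lines no response of these genes to E2 was detected. In Ex3aERKO mice 0 of 10 members were called at 2 h or 24 h after E2 by limma, where 0.149% and 0% of all genes were called, and in ERaUtcKO mice again 0 of 10, where 0.491% and 0% were. At an unadjusted p under 0.05 the count in Ex3aERKO was 1 member at 2 h (Spry2, -0.45) and 1 at 24 h (Spred2, 0.42). In ERaUtcKO it was 1 at 2 h (Spry1, -0.28) and none at 24 h. The share of all genes under that unadjusted threshold was not taken, so no response is read from these counts. Spry4 read 6.49 and 6.65 with vehicle and 6.18 and 6.40 after E2 at 2 h in Ex3aERKO, and 6.68, 6.79 and 6.89 against 6.70, 6.57 and 6.76 in ERaUtcKO. Dusp6 read 7.83 and 7.74 against 8.17 and 7.93 in Ex3aERKO, and 8.07, 8.24 and 8.17 against 8.37, 8.43 and 8.36 in ERaUtcKO. These shifts were small beside the littermates' rises, although the E2 arrays of Dusp6 lay above the vehicle arrays in both lines (0.26 ± 0.27, adjusted p = 0.963, and 0.23 ± 0.19, adjusted p = 0.827). Of all genes, 15.1% in Ex3aERKO and 6.83% in ERaUtcKO lay wholly above vehicle at 2 h after E2. Dusp6 also lay wholly above vehicle at 24 h after E2, by 0.49 in Ex3aERKO and 0.16 in ERaUtcKO. There 30.4% and 3.87% of all genes did so. Spry1 lay wholly below vehicle at 2 h in both lines (-0.12 and -0.28), as did 19.5% and 8.29% of all genes. None of these differences was called.

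The test of the difference itself, the E2 response of a knockout line minus that of its littermates, passed at 2 h for Spry2, Spry4, Dusp5 and Dusp6 in both lines. In the Ex3a set it was -4.01 ± 0.64 for Spry4 (adjusted p = 0.000403), -1.91 ± 0.28 for Spry2 (0.000208), -1.76 ± 0.37 for Dusp6 (0.00397) and -1.42 ± 0.32 for Dusp5 (0.00727). In the Utc set it was -4.11 ± 0.34 for Spry4 (adjusted p = 1.34e-08), -1.71 ± 0.27 for Spry2 (9.49e-05), -1.65 ± 0.20 for Dusp5 (3.46e-06) and -1.37 ± 0.26 for Dusp6 (0.000752). The test also passed in the Utc set for Etv5 (0.92 ± 0.22, adjusted p = 0.00484) and Spred1 (0.54 ± 0.13, adjusted p = 0.00646), which fell in littermates. Etv5 in ERaUtcKO still read 7.73, 7.59 and 7.69 after E2 against 7.95, 7.97 and 8.01 with vehicle (-0.31, not called). Of all genes, 8.29% lay wholly below vehicle there. Its vehicle level was already below that of littermates, as given further on. In the Ex3a set Etv5 had 1.23 ± 0.42 (adjusted p = 0.0781), which was called without Ex3aWT IGF1 2 h array 2 or 3 (down to 0.0254). The counts were 4 of 10 members where 9.43% of all genes were called in the Ex3a set, and 6 of 10 where 13.8% were in the Utc set.

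At 24 h the E2 response differed for Spred1 in the Ex3a set (0.64 ± 0.20, adjusted p = 0.0315), 1 member where 16.8% of genes were called. In the Utc set it differed for Spry4 (-1.45 ± 0.34, adjusted p = 0.00221), Dusp6 (-1.40 ± 0.26, adjusted p = 0.000257), Etv5 (-0.59 ± 0.22, adjusted p = 0.0388) and Spred1 (0.35 ± 0.13, adjusted p = 0.0432), 4 members where 32.9% were called. Both calls of Spred1 were lost when arrays were centred (0.52 ± 0.19, adjusted p = 0.0714, and 0.23 ± 0.13, adjusted p = 0.194), which moved the median of all genes from 0.10 to -0.02 in the Ex3a set and from 0.13 to 0.01 in the Utc set. In the Utc set the call of Spred1 was also lost with replicate number as a block (adjusted p = 0.0534). That of Etv5 was lost under quantile normalization (-0.39 ± 0.21, adjusted p = 0.189) and over both sets together (-0.30 ± 0.23, adjusted p = 0.292). Over both sets Spry4 (-1.29 ± 0.35, adjusted p = 0.00346), Dusp6 (-1.0 ± 0.23, adjusted p = 0.000518) and Spred1 (0.50 ± 0.11, adjusted p = 0.000536) were called. That fit was chosen after seeing the data and called 42.2% of all genes. The calls of Spred1 and Etv5 also depended on single arrays. In the Ex3a set it was lost on leaving out either vehicle array of Ex3aWT or of Ex3aERKO, Ex3aWT E2 24 h array 2 or 3, or Ex3aERKO E2 24 h array 1 (adjusted p up to 0.125). In the Utc set it was lost without vehicle array 1 or 2 of either genotype, UtcWT E2 24 h array 1 or 3, or ERaUtcKO E2 24 h array 1 or 2 (up to 0.134). The call of Etv5 was lost without UtcWT vehicle array 1 or 2, any ERaUtcKO vehicle array, or E2 24 h array 1 or 3 of either genotype (up to 0.0966).

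At 2 h after IGF1, Spry4, Dusp6, Dusp5, Spry2 and Spred1 were higher in both knockout lines, and Spry1, Spred3, Dusp4 and Etv5 were called in neither. In Ex3aERKO, 5 of 10 members were called, all higher, where 15.7% of all genes were called: Spry4 by 5.0 ± 0.47 (31.9-fold, adjusted p = 1.23e-06), Dusp6 by 2.50 ± 0.27 (4.65e-06), Dusp5 by 1.21 ± 0.24 (0.00143), Spry2 by 0.97 ± 0.21 (0.00312) and Spred1 by 0.94 ± 0.15 (0.000158). In ERaUtcKO, 6 of 10 were called, all higher, where 29.3% were: Spry4 by 4.66 ± 0.24 (25.2-fold, adjusted p = 1.37e-12), Dusp6 by 3.28 ± 0.19 (6.11e-12), Dusp5 by 1.29 ± 0.14 (1.46e-07), Spry2 by 1.27 ± 0.19 (1.28e-05), Spred1 by 0.99 ± 0.09 (1.56e-08) and Spred2 by 0.60 ± 0.15 (0.00249). Spry4 arrays after IGF1 read 12.01 and 11.13 in Ex3aERKO and 11.34, 11.37 and 11.63 in ERaUtcKO, all far above the vehicle arrays given above. The summed stroma signal at this time was 16.29 to 17.84 in Ex3aERKO and 17.59 to 17.87 in ERaUtcKO, and its part in these values was not tested. Dusp6 arrays read 10.84 and 9.74 in Ex3aERKO, apart from each other by over 1 log2 unit, and 11.25, 11.76 and 11.31 in ERaUtcKO. The direct comparison of the hormones at 2 h called 5 members in Ex3aERKO, where 12.3% of genes were called, and 8 in ERaUtcKO, where 24.5% were, all of them lower after E2. Dusp5 was not called there without Ex3aERKO IGF1 2 h array 1 (adjusted p = 0.0737), nor Spred2 and Etv5 without ERaUtcKO IGF1 2 h array 3 (0.065 and 0.0544).

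Spry2 was called after IGF1 in each knockout line and in none of the wild-type sets. Its arrays read 10.75 and 10.99 with vehicle and 11.84 and 11.85 after IGF1 at 2 h in Ex3aERKO, and 10.57, 10.27 and 10.35 against 11.39, 11.55 and 12.07 in ERaUtcKO. The ranges did not overlap in either line, while those of the littermates did. Of all genes, 24.4% in Ex3aERKO and 16.3% in ERaUtcKO lay wholly above vehicle after IGF1 at 2 h. The response was larger than that of littermates by 0.85 ± 0.28 in the Ex3a set (adjusted p = 0.501) and by 1.19 ± 0.29 in the Utc set (adjusted p = 0.0631), so that neither set alone passed. Fitted over both sets together, in a test chosen after seeing the data, the difference was 1.02 ± 0.21 (adjusted p = 0.00733), and Spry2 was the 1 member called there, where 0.491% of all genes were called. Spry4 had 1.06 ± 0.64 (adjusted p = 0.756) and 1.43 ± 0.36 (adjusted p = 0.0815) in the separate sets and 1.25 ± 0.36 (adjusted p = 0.136) over both. In the separate sets no member was called for a difference in the IGF1 response at 2 h, where 0% and 0.511% of all genes were called. Leaving out 1 array at a time, the Utc value of Spry2 was called without UtcWT E2 2 h array 1 or 2 or ERaUtcKO IGF1 2 h array 1. That of Spry4 was called without UtcWT IGF1 2 h array 2, UtcWT E2 2 h array 1 or 3, or ERaUtcKO IGF1 24 h array 2. The lowest adjusted p was 0.0178 for Spry2 and 0.0331 for Spry4.

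At 24 h after IGF1, Ex3aERKO mice had less Spry1 (-0.50 ± 0.14, adjusted p = 0.0179) and less Spred2 (-0.59 ± 0.17, adjusted p = 0.0183), 2 of 10 members where 18.6% of genes were called. Arrays are numbered by their replicate label. The call of Spry1 was lost without either vehicle array or without IGF1 array 3 (adjusted p up to 0.126), and that of Spred2 without vehicle array 2 or IGF1 array 1 (up to 0.249). In ERaUtcKO, Spry4 and Dusp6 were higher (1.07 ± 0.24, adjusted p = 0.00122, and 0.69 ± 0.19, adjusted p = 0.00552) and Spry1 and Spred1 lower (-0.46 ± 0.10, adjusted p = 0.000842, and -0.38 ± 0.09, adjusted p = 0.00308), 4 of 10 where 32.4% were called. The summed stroma signal at 24 h after IGF1 was 16.03 to 16.47 in Ex3aERKO against 17.77 to 18.29 with vehicle. In ERaUtcKO it was 17.07 to 17.52 against 18.02 to 18.09. However, 3 of the 7 markers in Ex3aERKO and 5 of 7 in ERaUtcKO were called higher, and 1 was called lower in each. In wild types this sum mostly follows 1 gene, Dcn, so its fall is not a fall of the stroma markers as a list. The summed smooth muscle signal was 18.95 to 19.45 in ERaUtcKO at 24 h after IGF1 against 17.78 to 18.36 with vehicle, with all 6 markers higher. The part of these shifts in the members' values was not tested. No member was called for a difference between its IGF1 response at 24 h and that of littermates, where 0.0133% and 0.0498% of all genes were. Between the hormones at 24 h, 3 members were called in Ex3aERKO (Spry1, Spred1 and Spred2, all higher after E2) where 19.3% of genes were, and 5 in ERaUtcKO where 30.3% were. In ERaUtcKO, Spry1, Spred1 and Spred2 were higher after E2 and Spry4 (-1.10 ± 0.24, adjusted p = 0.00101) and Dusp6 (-0.53 ± 0.19, adjusted p = 0.0317) lower. In Ex3aERKO the call of Spry1 was lost without E2 24 h array 3 (adjusted p = 0.0759) and that of Spred1 without E2 24 h array 1 (0.11). In ERaUtcKO that of Spry1 was lost without IGF1 24 h array 3 (0.0823) and that of Dusp6 without IGF1 24 h array 1 or 3 or E2 24 h array 1 or 2 (up to 0.111).

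With vehicle alone Etv5 was lower in ERaUtcKO mice than in their littermates, and the Ex3aERKO difference had the same sign and did not pass. Etv5 read 7.95, 7.97 and 8.01 in ERaUtcKO against 8.50, 8.63 and 8.73 in UtcWT (-0.64 ± 0.15, adjusted p = 0.0174), and 7.83 and 7.93 in Ex3aERKO against 9.28 and 8.72 in Ex3aWT (-1.12 ± 0.31, adjusted p = 0.0594). The groups did not overlap in either set, and both lines lay between the vehicle arrays and the E2 2 h arrays of their littermates. The share of all genes that separate in this way between genotypes was not taken. Etv5 was the 1 member called in the Utc set, where 4.17% of all genes were called, and none was called in the Ex3a set, where 2.96% were. The Utc call was lost without UtcWT vehicle array 2 or without ERaUtcKO vehicle array 1 or 2 (adjusted p up to 0.0616), and the Ex3a value was called without Ex3aWT IGF1 2 h array 2 or 3 (down to 0.0158). In Ex3aERKO vehicle uteri, 4 of 8 epithelial markers were higher (median of the list 1.04) and 2 of 7 stroma markers lower (-0.66) than in littermates, with the summed epithelial signal at 14.94 to 15.08 against 13.71 to 14.16. In the Utc set no epithelial, stroma or smooth muscle marker was called.

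Other genes of the pathway, listed with results of these data known, were read alongside. In the receptor to ERK cascade, 22 of 31 listed genes had a probe set of their own. Of these, 11 rose and 6 fell at 2 h after E2 in wild types (median 0.26), where 17.2% of all genes were called higher and 22.8% lower. After IGF1 13 rose and 5 fell (median 0.32), where 16.9% of all genes were higher and 19.0% lower. Map2k1, which encodes the ERK kinase MEK1, rose by 2.31 ± 0.08 after E2 (adjusted p = 2.74e-25), as did the scaffold gene Ksr1 (2.84 ± 0.19, adjusted p = 3.91e-16). The adaptor gene Gab1 fell after both hormones, by 1.45 ± 0.11 and 1.61 ± 0.12, and so did the receptor gene Fgfr2, by 0.97 ± 0.09 and 0.74 ± 0.10. After IGF1 the genes that rose included Ptpn11 (0.55 ± 0.07, adjusted p = 3.76e-08), which encodes the phosphatase SHP2, and the receptor gene Fgfr1 (0.50 ± 0.07, adjusted p = 3.1e-07). The genes for ERK1 and ERK2 themselves were not among those with a probe set of their own.

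Of the other negative regulators of RAS and ERK, 28 were measured, of which 13 rose and 6 fell at 2 h after E2 (median 0.14), where 40.0% of all genes were called, and 14 rose and 6 fell after IGF1 (median 0.18), where 35.9% were. Errfi1, an inhibitor of the EGF receptor, rose by 3.82 ± 0.13 after E2 (adjusted p = 4.62e-25) and by 2.03 ± 0.14 after IGF1 (adjusted p = 4.35e-15). Dusp1 rose by 2.53 ± 0.15 after E2 and Dusp7 by 1.71 ± 0.11 after IGF1, both phosphatases of MAP kinases. The ubiquitin ligase gene Cblb fell after both, by 1.14 ± 0.07 and 0.76 ± 0.08. A further list, for ERK-dependent transcription, had 20 measured genes and includes the transcription factor genes Elk1, Elk3, Elk4 and Srf. Whether these 20 genes depend on ERK in the uterus was not tested. Of them, 15 rose and 1 fell after E2 at 2 h (median 1.08). After IGF1 14 rose and none fell (median 0.79), beside the same shares of all genes. The immediate early gene Fos rose by 4.81 ± 0.33 and Ier2 by 3.70 ± 0.22 after E2, and Egr1 rose by 3.00 ± 0.30 and Srf by 2.87 ± 0.19 after IGF1. The same list had 14 genes higher and none lower after IGF1 at 2 h in each knockout line (medians 0.87 in Ex3aERKO, where 15.7% of all genes were called, and 1.14 in ERaUtcKO, where 29.3% were) and none called in either direction at 2 h after E2. In ERaUtcKO mice 2 negative regulators were called at 2 h after E2, Dusp1 (0.88 ± 0.18, adjusted p = 0.0241) and Dab2ip (0.32 ± 0.07, adjusted p = 0.0354), and no listed gene was in Ex3aERKO mice.

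At 24 h genes of these lists were called in both directions and the list medians lay near 0. After E2, where 56.2% of all genes were called, the cascade genes had 10 higher and 7 lower (median 0.05). The negative regulators had 12 and 12 (-0.05), and the list for ERK-dependent transcription had 7 and 2 (0.18). After IGF1, where 40.9% of all genes were called, the counts were 7 and 5 (0.04), 9 and 7 (0.01) and 3 and 3 (-0.03). Lrig1, which promotes receptor degradation, rose by 2.09 ± 0.13 at 24 h after E2 (adjusted p = 9.2e-17), and Fgfr2 fell by 1.76 ± 0.09 (adjusted p = 8.69e-19).

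Across the 20 differences from vehicle (5 genotype groups by 4 treatments), which share vehicle arrays in fours, the members fell into patterns that are given as a description. Spry4 and Dusp6 ran together (r = 0.89), as did Spry1 and Spred1 (r = 0.89) and Spry4 and Dusp5 (r = 0.80), while Etv5 ran against Spry2 and Dusp5 (r = -0.59 for each). Spry1 and Spry2, of the same family, were unrelated over these points (r = -0.10). Outside the members, the genes closest to Spry4 were Atf4 (r = 0.98), Slc25a25 (0.98) and Nmd3 (0.98), those closest to Spred1 were Snx18 (0.96), Dnmt3a (0.95) and Wnk4 (0.93), and those closest to Spry2 were Adgrg1 (0.90), Wsb1 (0.90) and Btg2 (0.89).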

How the data were processed

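Uterine RNA (300 ng) was labelled with the Affymetrix WT Plus kit, per the labels' protocols, and hybridised to whole-transcript arrays. The deposited table held log2 intensities of 72688 probe sets on 68 arrays; the sources used here do not give how the authors summarised and normalised them, and the values were used as deposited. Of 32750 annotated probe sets, 30604 carried 1 gene symbol, and the probe set with the highest mean per gene gave 30142 genes. limma 3.58.1 (R 4.3.3; lmFit and eBayes, tested on simulated data) was fitted over all genes, with Benjamini-Hochberg adjustment and a threshold of 0.05. The wild-type model held 42 arrays with treatment and mouse set (35 residual degrees of freedom); the Ex3a and Utc models held 25 and 29 arrays with 1 mean per group (15 and 19). Errors are standard errors. The number of arrays limits the precision.

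The members and gene lists were chosen with earlier results of these data known. Named genes were the 10 members, Esr1, up to 2 called genes per direction and pathway list by size of change, and the 3 genes most correlated with a member, with predicted genes passed over; examples were taken from these. Marker lists also covered endothelium, macrophage, granulocyte, T and NK cells, ovary and oviduct, and adipose tissue. Some of these shifted too. In Ex3aERKO the summed granulocyte signal was 10.97 to 16.02 at 24 h after IGF1 against 8.41 to 9.36 with vehicle. The summed adipose signal there was 13.59 to 13.73 at 2 h after IGF1 against 10.68 to 13.28. In ERaUtcKO the summed endothelium signal was lower at 2 h after IGF1 (12.59 to 12.93 against 13.12 to 13.42). Their part in the members' values was not tested. Same-numbered replicates did not deviate together (median correlation -0.14 in C57, -0.0027 in Ex3a and -0.0042 in Utc), so replicate number was not used as a pairing. Alternatives were centring, quantile normalization, a filter on dim genes, a replicate block, trended robust variance, each wild-type set alone and leaving out each array. The comparison of C57 with the littermate sets and the fit of both knockout experiments together were chosen after seeing the data. Python 3.11.15, pandas 2.3.3, numpy 2.4.6 and matplotlib 3.10.9 were used for tables, promoter windows and plots.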

Additional observations from a re-analysis of the deposited data

Results flagged for a closer look

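The response to E2 differed between knockout mice and their littermates by a test of the difference itself. At 2 h in the Ex3a set the difference was -4.01 for Spry4, -1.91 for Spry2, -1.76 for Dusp6 and -1.42 for Dusp5 on the log2 scale. At 2 h in the Utc set it was -4.11 for Spry4, -1.71 for Spry2, -1.65 for Dusp5 and -1.37 for Dusp6, and it had the opposite sign for Etv5 (0.92) and Spred1 (0.54), both of which fell after E2 in wild types. At 24 h it was 0.64 for Spred1 in the Ex3a set. At 24 h in the Utc set it was -1.45 for Spry4, -1.40 for Dusp6, -0.59 for Etv5 and 0.35 for Spred1. Both calls of Spred1 at 24 h were lost when arrays were centred, and that of Etv5 under quantile normalization.

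The mouse sets also differed among wild types. The response of Dusp5 in C57 exceeded that of the littermate sets by 2.01 after E2 and by 1.13 after IGF1 at 2 h, while those of Spry1 and Dusp6 to E2 at 24 h were lower there by the log2 differences -0.55 and -0.79. Dusp5 also read higher on C57 vehicle arrays, but array levels differed between the sets and this was not tested. Across both knockout lines Spry2 responded to IGF1 at 2 h by 1.02 more than in littermates. That fit, like the comparisons of wild-type sets, was chosen after seeing the data. Neither knockout set passed alone for Spry2 (limma adjusted p = 0.501 and 0.0631). Single arrays were not tested for standing apart, since groups hold 2 or 3 arrays.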

How the results depend on the processing

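No member's difference changed sign under any alternative where it had been called. Of 300 results (10 members in 30 comparisons), 292 kept their side of the threshold when arrays were centred, 287 under quantile normalization, 296 without dim genes, 299 with replicate number as a block and 299 with trended robust variance. With the replicate block Spred1 in the Utc set at 24 h after E2 lost its call (adjusted p = 0.0534), and the count of all genes called at 2 h after E2 in Ex3aERKO went from 45 to 21; no other member's call changed. In single wild-type sets 70 (C57), 69 (Ex3aWT) and 67 (UtcWT) of 80 results kept their side. Of 9300 results with 1 array left out, 44 lost and 36 gained a call.

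Counts of members called moved as follows. Centring took the Ex3a difference in the E2 response at 24 h from 1 to 0. Quantile normalization took the vehicle comparison from 0 to 1 in the Ex3a set and from 1 to 2 in the Utc set, and leaving out dim genes also took the former to 1. In C57 alone and in UtcWT alone 3 members in place of 5 differed between the hormones at 24 h. In Ex3aWT alone 0 in place of 5 were called at 24 h after IGF1. Single sets hold fewer arrays per treatment, and the share of all genes called in them is not given here. These drops therefore cannot be told apart from a general loss of calls. With both knockout experiments together, chosen after seeing the data, 3 members were called for the E2 response at 24 h and 1 for the IGF1 response at 2 h. That fit called 6269 genes for E2 at 2 h (2841 and 4154 in the separate sets), 12734 at 24 h (5063 and 9907), 148 for IGF1 at 2 h (0 and 154) and 280 at 24 h (4 and 15). The cause of these shifts was not tested.

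Leaving out 1 array moved the count between 0 and 2 for Ex3aERKO at 24 h after IGF1, between 0 and 1 for the Ex3a difference in the E2 response at 24 h and for both vehicle comparisons, between 2 and 4 for the Utc difference in the E2 response at 24 h, between 0 and 2 for the Utc difference in the IGF1 response at 2 h, and between 3 and 5 for E2 against IGF1 at 24 h in ERaUtcKO. The choice among probe sets could not be varied, since each member has 1. Signal limits Dusp4 and Dusp5, which were within the range of the control probe sets on some arrays.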

Other observations

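The genes whose differences ran closest to the remaining members over the same 20 differences from vehicle were Thumpd3 for Dusp6 (r = 0.96), Zfpm1 for Dusp5 (0.97), Vangl1 for Etv5 (0.94), Ctbp2 for Spry1 (0.90), Elf1 for Spred2 (0.85) and for Dusp4 (0.80), and Mllt6 for Spred3 (0.83). These points share vehicle arrays and are a description only.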
